A study of Mus musculus with 10 samples.

Results

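The genes described here are the adult globins and the erythroid enzyme Alas2 as they were counted in the gastrocnemius muscle of smoke-exposed mice. The members were chosen by name and found by matching the Ensembl identifiers of the count table to the symbols Hba-a1, Hba-a2, Hbb-bs, Hbb-bt and Alas2, which gave 5 of the 49315 rows. The samples were 10 male mice on the C57BL6J background, 5 with a floxed Ahr gene (AHRfl/fl) and 5 with a muscle-specific knockout of the aryl hydrocarbon receptor (AHRmKO). The knockout came from the HSA-MCM transgene, a Cre recombinase switched on by tamoxifen and driven by the human ACTA1 promoter of skeletal muscle fibres, not of red cells, and the AHRfl/fl littermates lacked Cre. All 10 mice breathed cigarette smoke over 16 weeks in 2 sessions of 1 h per day, 5 days per week, at an average of 220 ± 80 mg/m3, beginning 4 weeks after tamoxifen according to the sample labels. The main text of the study gives a shorter interval between tamoxifen and smoke. Muscle was taken 72 h after the last exposure according to the series description. The text of the study gives a span that begins earlier and ends at that time. Air-exposed mice were not analysed here, so no value below measures an effect of smoke.

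Haemoglobin is a tetramer of a pair of alpha and a pair of beta chains, each holding a haem group that binds oxygen. The chains are made in red cell precursors in the bone marrow, and young red cells that have just entered the blood, called reticulocytes, still carry globin mRNA after they have lost their nucleus. Hba-a1 and Hba-a2 encode the adult alpha chain and Hbb-bs and Hbb-bt the adult beta chain of mice with the s haplotype, while Alas2 encodes the erythroid form of 5-aminolevulinate synthase, which makes the first intermediate of haem in red cell precursors. RNA from a whole muscle includes RNA of the blood left in its vessels, and in such bulk samples fewer cells of a type and less RNA per cell cannot be told apart.

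Each globin chain is encoded by a pair of near-identical copies, and only reads that mapped to a single place were counted, so the sequences decide which reads could enter the counts. Positions are those of GENCODE M21 on GRCm38. Hba-a1 (ENSMUSG00000069919) lies on the plus strand of chromosome 11 from 32283511 to 32284465, and Hba-a2 (ENSMUSG00000069917) on the same strand from 32296489 to 32297298. The coding sequences of both copies have 429 nt and differ at 1 base, C381T, where Hba-a1 comes first and positions count from the first base of the start codon. The base is the third of codon 127 and lies in exon 3, at position 32284343 in Hba-a1 and at 32297160 in Hba-a2. The last 109 coding bases of each copy, from position 321 to 429, are shown with that base as the only capital.
Hba-a1, chr11:32284283-32284391, plus strand: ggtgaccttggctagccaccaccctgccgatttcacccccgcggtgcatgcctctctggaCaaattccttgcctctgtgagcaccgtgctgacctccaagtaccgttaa
Hba-a2, chr11:32297100-32297208, plus strand: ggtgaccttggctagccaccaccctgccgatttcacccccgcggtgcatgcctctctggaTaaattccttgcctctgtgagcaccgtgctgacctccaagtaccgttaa

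The transcript models of the alpha copies share an unbroken run of 415 nt before this base and one of 122 nt after it. For the search, the transcript models of the other members were extended upstream by RefSeq bases. Of the 550 windows of 150 bases (the read length) in the Hba-a1 transcript, 123 or 22.4% were found in no other gene's transcript. All of these contained the differing base. Hba-a2 had 139 such windows of 405 (34.3%), which also contained the differing base. Of these, 16 reached past the end of the Hba-a1 model. A single read could therefore be assigned to an alpha copy from the extended transcript models only if it crossed this 1 base. The reads were paired, and the windows do not consider a read whose mate crossed it.

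Hbb-bs (ENSMUSG00000052305) lies on the minus strand of chromosome 7 from 103826534 to 103828096, and Hbb-bt (ENSMUSG00000073940) on the same strand from 103812524 to 103813996. Their coding sequences have 444 nt and also differ at 1 base, C417T, where Hbb-bs comes first. This base is the third of codon 139, in exon 3, at position 103826692 in Hbb-bs and at 103812683 in Hbb-bt. The last 88 coding bases, from position 357 to 444, are shown in the same way.
Hbb-bs, chr7:103826665-103826752, minus strand: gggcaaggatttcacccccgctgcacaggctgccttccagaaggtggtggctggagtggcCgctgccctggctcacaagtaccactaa
Hbb-bt, chr7:103812656-103812743, minus strand: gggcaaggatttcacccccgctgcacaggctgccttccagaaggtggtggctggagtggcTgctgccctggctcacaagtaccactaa

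The beta transcripts share a run of 430 nt and differ on either side of it, so more of each could be told apart than in the alpha copies. In Hbb-bs 198 of 479 windows were unique (41.3%) and in Hbb-bt 273 of 554 (49.3%). Alas2 (ENSMUSG00000025270), on the plus strand of chromosome X from 150547375 to 150570638, has no such copy, and 1725 of its 1888 windows were unique (91.4%). The other Alas2 windows also occur in models of Apex2, a gene for a DNA repair enzyme on the opposite strand, which had from 124 to 221 counts per mouse. The sources do not say whether strand was used in counting, and reads of this overlap cannot be told apart without it. The windows were searched only in spliced transcripts, extended upstream by RefSeq bases for the members, because a genome was not used here.

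The bases upstream of the start sites were searched for known motifs. The 250 bases before the start site in RefSeq (GRCm38.p6) are given for 4 of the members. In them, 4 motifs known from red cell promoters are in capitals on either strand. The GENCODE gene models used above begin before these RefSeq start sites, so part of each window lies inside them. The site of the GATA factors was searched as AGATAA and, in its other common spelling, as TGATAA. The site of Krueppel-like factors such as Klf1 was searched as CACCC. The box named for the letters CCAAT was searched by those letters, and the box to which the general initiation machinery binds was searched as ATATAA.
Hba-a1, chr11:32283422-32283671, plus strand: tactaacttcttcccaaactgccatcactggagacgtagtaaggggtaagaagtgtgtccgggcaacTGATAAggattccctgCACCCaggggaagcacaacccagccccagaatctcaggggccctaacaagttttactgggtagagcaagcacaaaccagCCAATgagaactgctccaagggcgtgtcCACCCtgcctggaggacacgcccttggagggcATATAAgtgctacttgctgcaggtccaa
Hbb-bs, chr7:103827929-103828178, minus strand: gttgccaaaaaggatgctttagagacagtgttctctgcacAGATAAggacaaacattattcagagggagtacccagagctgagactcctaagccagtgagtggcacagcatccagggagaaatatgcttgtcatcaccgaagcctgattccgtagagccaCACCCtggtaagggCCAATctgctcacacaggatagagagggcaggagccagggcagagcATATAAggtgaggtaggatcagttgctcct
Hbb-bt, chr7:103813924-103814173, minus strand: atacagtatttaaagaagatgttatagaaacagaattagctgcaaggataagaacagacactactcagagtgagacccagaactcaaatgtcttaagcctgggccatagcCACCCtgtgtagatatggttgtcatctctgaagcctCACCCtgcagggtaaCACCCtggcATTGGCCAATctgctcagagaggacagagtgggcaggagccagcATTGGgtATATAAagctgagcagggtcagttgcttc
Alas2, chrX:150547167-150547416, plus strand: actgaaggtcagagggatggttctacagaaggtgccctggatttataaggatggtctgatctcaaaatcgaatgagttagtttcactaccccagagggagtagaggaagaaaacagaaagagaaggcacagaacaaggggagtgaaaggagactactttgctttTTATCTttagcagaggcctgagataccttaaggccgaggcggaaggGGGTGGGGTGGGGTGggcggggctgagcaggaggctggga

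The window of Hba-a2 is not shown because the 247 bases that can be aligned with Hba-a1 have 0 differences. The GATA letters occurred in the windows of Hba-a1, Hba-a2, Hbb-bs and Alas2 but not in that of Hbb-bt, and in 16.6% of the 32851 windows of all genes. CACCC occurred in all 5 windows and in 52.0% of those of all genes. CCAAT occurred in the 4 globin windows and in 33.8% of all, and the TATA letters in the 4 globin windows and in 9.10% of all. Alas2 held neither of these 2. In Hbb-bt, a pair of CCAAT matches on opposite strands touch each other. A match describes these letters only and is not evidence of a bound factor.

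Total counts were between 30393035 and 37954388 per mouse, and the 5 members together took between 0.00996% and 0.0467% of them. Levels are in CPM, which relate each gene's counts to its library's TMM-normalized size. Ahr itself had from 43 to 110 counts in AHRfl/fl and from 31 to 80 in AHRmKO mice, so the groups overlapped in the targeted gene, whose counts sum all exons and not only the floxed one. Esr1, the oestrogen receptor gene whose ligand-binding part is fused to Cre in MCM, had from 544 to 658 counts in AHRfl/fl and from 9770 to 24975 in AHRmKO mice, so every library matched its labelled genotype in this gene. Counts of Xist, which female cells express, were between 44 and 75 in 5 libraries (3 AHRfl/fl and 2 AHRmKO) and between 0 and 3 in the other 5, although the mice are labelled male and Ddx3y of the Y chromosome had at least 1852 counts in every mouse. The summed level of the 4 globins was between 108 and 208 CPM in the libraries with Xist counts and between 102 and 474 CPM in the others. The part of this in the results was not tested beyond a fit with Xist as a covariate, given below. Skeletal muscle markers (Acta1, Ckm, Myh4, Tnnt3 and Mylpf) summed to between 114024 and 164774 CPM in every mouse, as the tissue label says.

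Hba-a1 was the second most abundant member by counts and the one that varied most between mice. In AHRfl/fl mice it was at 24.9 CPM in mouse 12, 38.9 in mouse 33, 42.4 in mouse 11, 77.8 in mouse 15 and 101 CPM in mouse 13. In AHRmKO mice it was at 42.4 CPM in mouse 34, 58.0 in mouse 9, 78.2 in mouse 22, 169 in mouse 8 and 184 CPM in mouse 19. AHRmKO mice 8 and 19 were above every AHRfl/fl mouse and the other 3 lay within the AHRfl/fl range. The highest mouse was 7.37 times the lowest. The mean was 57.0 ± 31.4 CPM (SD, n = 5) in AHRfl/fl and 106 ± 65.5 CPM (SD, n = 5) in AHRmKO muscle.

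Hba-a2, the second alpha copy, was counted less often in every mouse. It was at 6.72 CPM in AHRfl/fl mouse 12, 8.22 in mouse 33, 8.93 in mouse 11, 11.5 in mouse 15 and 22.4 CPM in mouse 13. In AHRmKO muscle it was at 8.52 CPM in mouse 9, 10.5 in mouse 34, 14.1 in mouse 22, 20.3 in mouse 8 and 29.0 CPM in mouse 19. The groups overlapped, with AHRfl/fl mouse 13 above 4 of the 5 AHRmKO mice. The means were 11.6 ± 6.32 and 16.5 ± 8.28 CPM (SD, n = 5 each).

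Hbb-bs, the major beta gene of this haplotype, had the highest level of the members. In AHRfl/fl mice it was at 47.6 CPM in mouse 11, 53.1 in mouse 33, 58.3 in mouse 12, 106 in mouse 15 and 157 CPM in mouse 13. In AHRmKO mice it was at 75.5 CPM in mouse 34, 75.6 in mouse 9, 98.4 in mouse 22, 201.6 in mouse 8 and 232 CPM in mouse 19. As in Hba-a1, AHRmKO mice 8 and 19 exceeded all AHRfl/fl mice and the remaining 3 did not. The means were 84.4 ± 46.7 CPM in AHRfl/fl and 137 ± 74.5 CPM in AHRmKO muscle (SD, n = 5 each).

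Hbb-bt, the minor beta gene, was at 9.07 CPM in AHRfl/fl mouse 11, 9.49 in mouse 33, 12.2 in mouse 15, 12.3 in mouse 12 and 33.6 CPM in mouse 13. In AHRmKO muscle it was at 8.06 CPM in mouse 9, 12.02 in mouse 34, 12.5 in mouse 22, 28.4 in mouse 8 and 30.1 CPM in mouse 19. The highest and the lowest of all mice were thus an AHRfl/fl and an AHRmKO mouse, and the groups overlapped almost completely. The means were 15.3 ± 10.3 and 18.2 ± 10.2 CPM (SD, n = 5 each).

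Alas2 was the least abundant member, with between 81 and 346 counts per mouse. It was at 2.57 CPM in AHRfl/fl mouse 12, 2.84 in mouse 11, 2.94 in mouse 33, 3.49 in mouse 15 and 6.74 CPM in mouse 13. In AHRmKO muscle it was at 2.20 CPM in mouse 9, 2.66 in mouse 34, 2.81 in mouse 22, 8.08 in mouse 19 and 9.09 CPM in mouse 8. The 7 lower mice lay close together and the same 3 mice as before, AHRfl/fl mouse 13 and AHRmKO mice 8 and 19, stood above them. The means were 3.72 ± 1.72 and 4.97 ± 3.33 CPM (SD, n = 5 each).

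**Figure D1:**
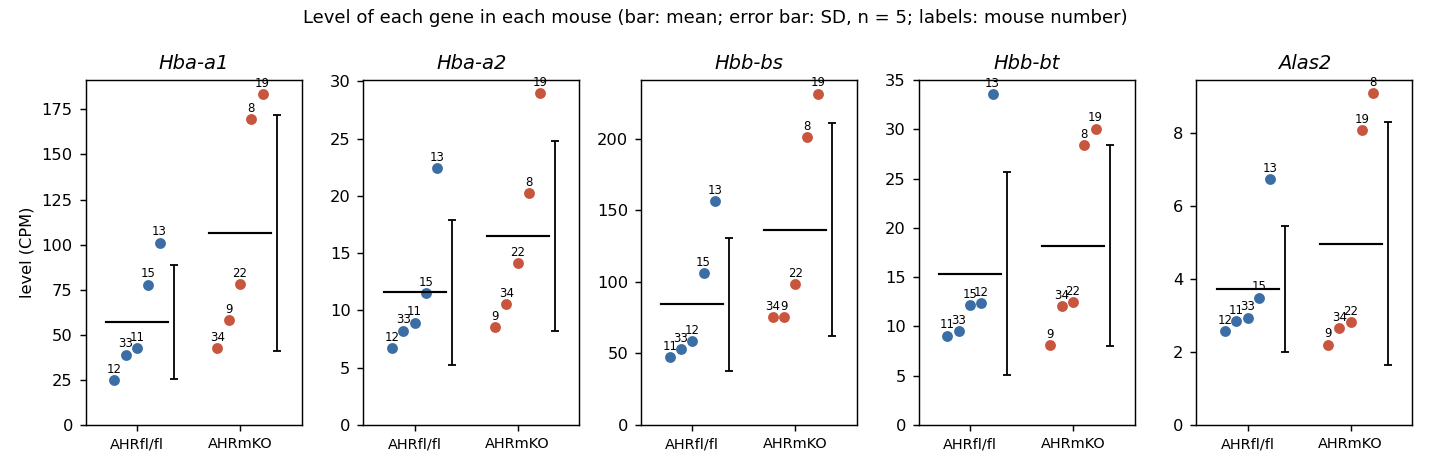
Level of each member (CPM, linear axes that start at 0) in each AHRfl/fl and AHRmKO mouse, with the mouse number beside each point, the group mean as a bar and the SD as an error bar (n = 5). Mouse 13 is the highest AHRfl/fl mouse and mice 8 and 19 are the highest AHRmKO mice in all 5 genes.

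The genotypes did not differ beyond the spread between mice in any member. With edgeR's quasi-likelihood test, 0 of the 5 members had an adjusted p under 0.05, where 0.0068% of the 14714 genes tested did, and 0 had an unadjusted p under 0.05, where 6.61% of all genes did. DESeq2 and limma-voom also called 0 of the 5. The log2 fold change of AHRmKO over AHRfl/fl was 0.90 for Hba-a1 (standard error 0.54, 95% interval -0.33 to 2.12, adjusted p = 0.815). It was 0.69 for Hbb-bs (standard error 0.48, 95% interval -0.39 to 1.78, adjusted p = 0.834), and 0.51 for Hba-a2 with an interval from -0.46 to 1.48. Hbb-bt was at 0.25 with an interval from -0.91 to 1.40, and Alas2 at 0.42 with an interval from -0.63 to 1.46. The intervals do not exclude an AHRmKO level of Hba-a1 up to 4.36 times, or down to 0.797 times, that of AHRfl/fl muscle. Exact two-sided permutation tests of the log2 CPM gave p from 0.167 for Hba-a1 to 0.706 for Hbb-bt. All 5 estimates were above 0, as were those of 51.5% of all genes, and the members' levels are not independent of each other.

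Because unique counting keeps only reads that tell the copies apart, the copies of each chain were also summed. The sums do not recover the discarded reads that fit both copies. Summed alpha-globin was between 31.6 and 124 CPM in AHRfl/fl and between 53.0 and 212 CPM in AHRmKO mice, and differed by 0.84 on the log2 scale (95% interval -0.34 to 2.02, standard error 0.52, edgeR adjusted p = 0.819). Summed beta-globin differed by 0.63 on the log2 scale (95% interval -0.45 to 1.72, standard error 0.48, edgeR adjusted p = 0.850). In both sums, as in Hba-a1 and Hbb-bs, 2 AHRmKO mice were above every AHRfl/fl mouse and the other 3 lay within the AHRfl/fl range. Leaving out AHRmKO mouse 19 moved Hba-a2 to 0.21 and Hbb-bt to -0.0058 on the log2 scale, while leaving out AHRfl/fl mouse 13 moved them to 0.89 and 0.75. Without AHRmKO mouse 8, Alas2 was at 0.08, and without AHRfl/fl mouse 13 at 0.74. Without AHRmKO mouse 19, Hbb-bs was at 0.42, summed alpha-globin at 0.55 and summed beta-globin at 0.36, and without AHRfl/fl mouse 13 these were at 1.04, 1.16 and 1.00. When the fit included whether a library held Xist counts, the log2 fold change was 0.71 for Hba-a1, 0.35 for Hba-a2, 0.50 for Hbb-bs, 0.02 for Hbb-bt and 0.12 for Alas2.

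**Figure D2:**
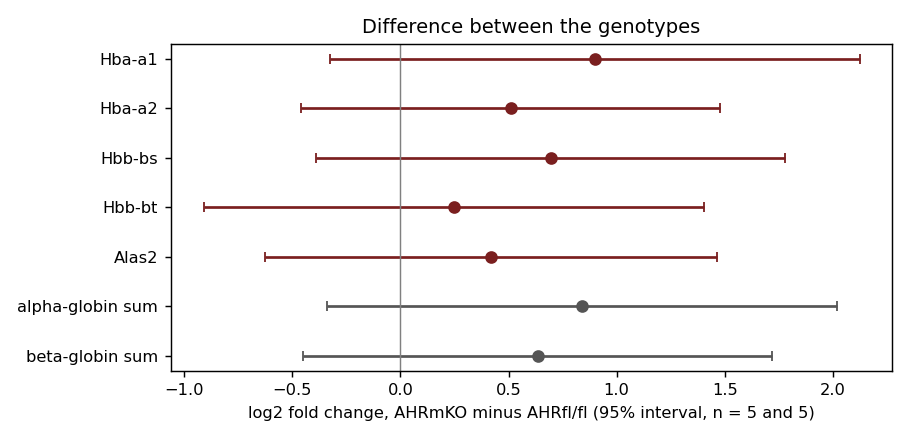
Log2 fold change of AHRmKO over AHRfl/fl muscle for each member and for the summed copies of each chain, with 95% intervals of the edgeR fit (n = 5 and 5). All 7 intervals include 0, from Hba-a1 at 0.90 to Hbb-bt at 0.25.

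The spread between mice of the same genotype was large for all members. The pooled within-genotype SD of log2 CPM was 0.88 for Hba-a1, 0.80 for Hbb-bt, 0.78 for Alas2, 0.76 for Hbb-bs and 0.69 for Hba-a2, against a median of 0.21 over all genes tested. Only 1.83% of genes had a larger SD than Hba-a1, and 4.54% a larger SD than Hba-a2. The biological coefficient of variation of the edgeR fit was between 0.459 for Hba-a2 and 0.566 for Hba-a1, where its median over all genes was 0.151. Within a genotype, the highest mouse was between 2.63 times (Alas2 in AHRfl/fl) and 4.33 times (Hba-a1 in AHRmKO) the lowest.

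The same mice were high in all members. Hba-a1, Hba-a2 and Hbb-bs covered their ranges without a wide gap, and their log2 CPM correlated over the 10 mice. Between Hba-a1 and Hbb-bs, the alpha and beta genes counted most, Pearson's r was 0.946 and Spearman's rho 0.939 (permutation test, adjusted p = 0.00040 and 0.00080 over 10 pairs). Between Hba-a1 and Hba-a2 r was 0.933 and rho 0.952 (permutation test, adjusted p = 0.00040 and 0.00070), and between Hba-a2 and Hbb-bs r was 0.942 and rho 0.867 (permutation test, adjusted p = 0.00053 and 0.0071). Without the 2 mice farthest from the median of the first gene, r was 0.958, 0.876 and 0.904 in the same order. After subtracting the mean of each genotype r was still 0.932, 0.925 and 0.934. All members share the same library sizes, and the alpha copies share nearly all of their sequence.

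Hbb-bt and Alas2 fell into a low cluster of 7 mice and a high cluster of 3, with a gap of 1.18 and 0.94 on the log2 scale between them. No r over all 10 mice is given for pairs with these genes. Within the 7 lower mice, r of the 7 pairs with Hbb-bt or Alas2 was between 0.049, for Hba-a1 and Hbb-bt, and 0.496, for Hbb-bs and Hbb-bt (exact permutation tests, adjusted p from 0.522 to 0.883 over 10 pairs). It was 0.466 for Hbb-bt and Alas2. In the same 7 mice r was 0.857 for the alpha copies, 0.796 for Hba-a1 and Hbb-bs and 0.761 for Hba-a2 and Hbb-bs (exact permutation tests, adjusted p = 0.163, 0.165 and 0.165 over 10 pairs). The 7 mice cover only the low part of the range. The tests within them therefore do not decide how Hbb-bt and Alas2 relate to the other members over the full range.

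**Figure D3:**
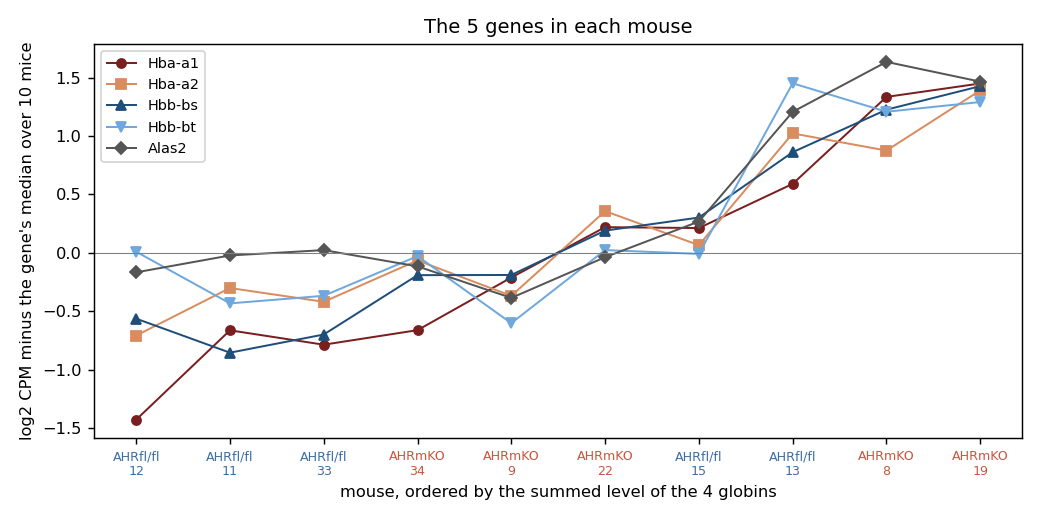
Log2 CPM of the 5 members minus each gene's median over the 10 mice, with the mice ordered by the summed level of the 4 globins and labelled by genotype and number. AHRfl/fl mouse 13 and AHRmKO mice 8 and 19 are the 3 highest mice in every gene. Over the other 7, Hbb-bt runs from 8.06 to 12.5 CPM and Alas2 from 2.20 to 3.49 CPM.

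Relative levels of the members depend on how the length open to unique reads is taken. Per kilobase of exon, the mean level over the 10 mice was 144 CPM for Hbb-bs, 101 for Hba-a1, 23.9 for Hbb-bt, 21.02 for Hba-a2 and 1.81 CPM for Alas2. Per 100 positions at which a 150-base window is unique, it was 66.4 CPM for Hba-a1, 55.8 for Hbb-bs, 11.4 for Hba-a2, 6.14 for Hbb-bt and 0.252 CPM for Alas2. The Hba-a2 value was taken over 123 positions, without the 16 windows past the end of the Hba-a1 model. Over all 139 it would be lower. In these means, the order of the most abundant alpha and beta gene, and that of the minor copies, thus changed between the 2 scales. In single mice the order can differ, as in AHRfl/fl mouse 12, with 24.9 CPM of Hba-a1 and 58.3 CPM of Hbb-bs. On either scale Alas2 was the lowest.

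Hba-a1 had fewer unique windows of 150 bases than Hba-a2, 123 against 139, but more counts. Hba-a1 took between 78.8% and 89.3% of the alpha-globin counts of a mouse. In AHRfl/fl mice the share was 78.8% in mouse 12, 81.9% in mouse 13, 82.6% in mice 11 and 33 and 87.1% in mouse 15. In AHRmKO mice it was 80.1% in mouse 34, 84.7% in mouse 22, 86.4% in mouse 19, 87.2% in mouse 9 and 89.3% in mouse 8. The counting error was smaller than the difference between the lowest and the highest mouse. The exact binomial 95% intervals ran from 76.2% to 81.1% in mouse 12 and from 88.6% to 90.0% in mouse 8. Intervals of mice with closer shares overlapped, as in mice 11, 13 and 33. Reads carry no molecular identifiers, so these intervals cover counting error only. The genotypes overlapped, at 82.6 ± 2.98% and 85.5 ± 3.46% (SD, n = 5 each; exact permutation test, two-sided, p = 0.190, adjusted p = 0.254 over 4 shares).

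Hbb-bt took the smaller part of the beta-globin counts in every mouse. Its share in AHRfl/fl mice was 10.3% in mouse 15, 15.2% in mouse 33, 16.0% in mouse 11, 17.5% in mouse 12 and 17.7% in mouse 13. In AHRmKO mice it was 9.63% in mouse 9, 11.2% in mouse 22, 11.5% in mouse 19, 12.3% in mouse 8 and 13.7% in mouse 34. Of the 5 AHRfl/fl mice, 4 were above every AHRmKO mouse, and AHRfl/fl mouse 15 was among the lowest. The means were 15.3 ± 3.00% and 11.7 ± 1.51% (SD, n = 5 each), a difference of -3.63 percentage points (two-sided exact permutation test, p = 0.0476), which did not pass adjustment over the 4 shares compared (adjusted p = 0.111). The exact p was between 0.00794, without AHRfl/fl mouse 15, and 0.103, without AHRfl/fl mouse 12 or 13, when each mouse was left out in turn.

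**Figure D4:**
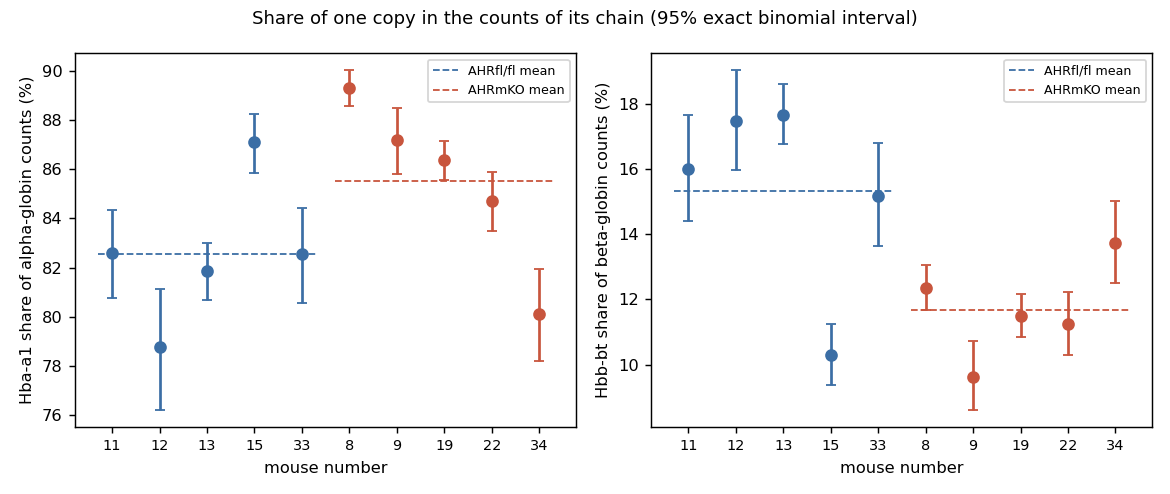
Share of Hba-a1 in the alpha-globin counts and of Hbb-bt in the beta-globin counts of each mouse (percent, axes that do not start at 0), with exact binomial 95% intervals and the mean of each genotype as a dashed line. The Hba-a1 share runs from 78.8% to 89.3% and overlaps between genotypes, and the Hbb-bt share is above 15% in 4 AHRfl/fl mice and below 14% in all AHRmKO mice.

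The balance of the chains in the unique counts varied less than their levels. A smaller part of the 150-base windows was unique in Hba-a1 (22.4%) and Hba-a2 (34.3%) than in Hbb-bs (41.3%) and Hbb-bt (49.3%). In Alas2 the unique part was 91.4%. The parts below are therefore parts of the unique counts and do not give the ratios of the RNAs. Alpha-globin made up between 30.9% and 47.5% of the globin counts in AHRfl/fl and between 37.7% and 45.5% in AHRmKO mice (two-sided exact permutation test, p = 0.460). Alas2 counts were between 1.68% and 2.68% of the globin counts in AHRfl/fl and between 1.38% and 2.16% in AHRmKO mice, with means of 2.33 ± 0.418% and 1.72 ± 0.319% (SD, n = 5 each; exact permutation test, two-sided, p = 0.0556, adjusted p = 0.111). Neither ratio depends on the normalization of library sizes.

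The other globins on the lists were nearly absent or belonged to cells other than red cells. The embryonic and minor globins Hbb-bh0, Hbb-bh1, Hbb-bh2, Hbb-bh3, Hbb-y and Hba-x had 0 counts in every mouse, where 3 counts correspond to between 0.0790 and 0.0987 CPM. The theta-globin genes Hbq1a and Hbq1b had at most 5 counts. Myoglobin (Mb), the oxygen store of muscle fibres, was at 2907 CPM in AHRfl/fl and 2311 CPM in AHRmKO muscle (log2 fold change -0.33, edgeR adjusted p = 0.902). Cytoglobin (Cygb), which is found in connective tissue cells, was at 14.2 and 15.5 CPM.

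Of 15 genes of haem synthesis, Alas2 among them, 0 had an adjusted p under 0.05, and an unadjusted p under 0.05 was found for 1 with a higher and 2 with a lower estimate, where 3.23% and 3.38% of all genes had one. The median log2 fold change of the list was -0.05, against 0.01 over all genes tested. Glrx5, which serves iron-sulfur cluster assembly in mitochondria, was at 80.2 ± 5.83 CPM in AHRfl/fl and 51.8 ± 12.1 CPM in AHRmKO muscle (SD, n = 5 each; log2 fold change -0.63, standard error 0.14, edgeR adjusted p = 0.606). Every AHRmKO mouse was below every AHRfl/fl mouse in it, and the groups did not overlap in 1.4% of all genes. Alas1, the form of the enzyme used outside red cells, was at 133 and 112 CPM (log2 fold change -0.25, edgeR adjusted p = 0.606). Slc25a37, the iron importer mitoferrin-1 that developing red cells depend on, was at 20.4 and 23.6 CPM (log2 fold change 0.21, edgeR adjusted p = 0.665). Fech, which inserts the iron into haem, was at 132 and 137 CPM.

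Of 21 genes of haem and iron handling, 19 were tested and 0 passed adjustment. Ncoa4, which directs ferritin to breakdown, was at 18.8 and 23.3 CPM (log2 fold change 0.32, edgeR adjusted p = 0.606), and Slc48a1, a haem transporter, at 51.1 and 45.8 CPM (log2 fold change -0.16, edgeR adjusted p = 0.665). The ferritin chains Fth1 and Ftl1 were at 1422 and 151 CPM in AHRfl/fl muscle. Haem oxygenase Hmox1, which breaks haem down, was at 7.68 and 8.73 CPM (log2 fold change 0.18, edgeR adjusted p = 0.933).

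Of 12 erythroid transcription factors, 8 were tested and 0 passed adjustment. Gata1 and Klf1, which drive the globin genes in red cell precursors, had from 1 to 5 and from 3 to 13 counts per mouse and were removed by the filter and not tested. Nfe2l1, a factor of all tissues, was at 884 and 764 CPM (log2 fold change -0.21, edgeR adjusted p = 0.724). Of 35 genes of the red cell membrane and of red cell maturation, 32 were in the table, 20 were tested and 0 passed adjustment. Car1, a carbonic anhydrase of red cells, was at 0.460 and 0.237 CPM (log2 fold change -0.94, edgeR adjusted p = 0.707). Epb41 and Sptb, parts of the membrane skeleton that muscle also expresses, had log2 fold changes of 0.17 and 0.16 (edgeR adjusted p = 0.718 and 0.738).

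The mice highest in globins were not the mouse highest in other red cell genes. The 6 erythroid markers used here besides Alas2 (Slc4a1, Hemgn, Klf1, Gata1, Epb42 and Rhag) all had counts in every mouse. They summed to between 0.606 and 5.13 CPM in AHRfl/fl and between 0.628 and 1.79 CPM in AHRmKO mice. The highest sum, 5.13 CPM, was that of AHRfl/fl mouse 33, whose globins summed to 110 CPM and were among the 3 lowest. AHRmKO mice 8 and 19, with 420 and 474 CPM of globin, had 1.44 and 1.57 CPM of these markers. AHRfl/fl mouse 13, the next in globin at 314 CPM, had 2.28 CPM, the second-highest marker sum. Slc4a1, the anion exchanger band 3 of the red cell membrane, was at 3.37 CPM in AHRfl/fl mouse 33 and between 0.269 and 1.27 CPM in the other 9 mice. Rhag, a membrane protein of the Rh complex, was at 0.587 CPM there and between 0.0288 and 0.254 CPM elsewhere, and Hemgn, a nuclear protein of precursors, at 0.525 CPM and between 0.0577 and 0.310 CPM. Of the 31 genes of the red cell membrane and maturation list that had counts, 12 were highest in this mouse. Among these were 2 of the 20 list genes tested, where 8.67% of all genes tested were highest in it. The other 10 were among the 11 list genes that the filter had removed (90.9%), which had from 13 to 98 counts over the 10 mice. Of the 5757 removed genes with totals in that range, 23.5% were highest in this mouse, and all of these shares were looked at after seeing the data.

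**Figure D5:**
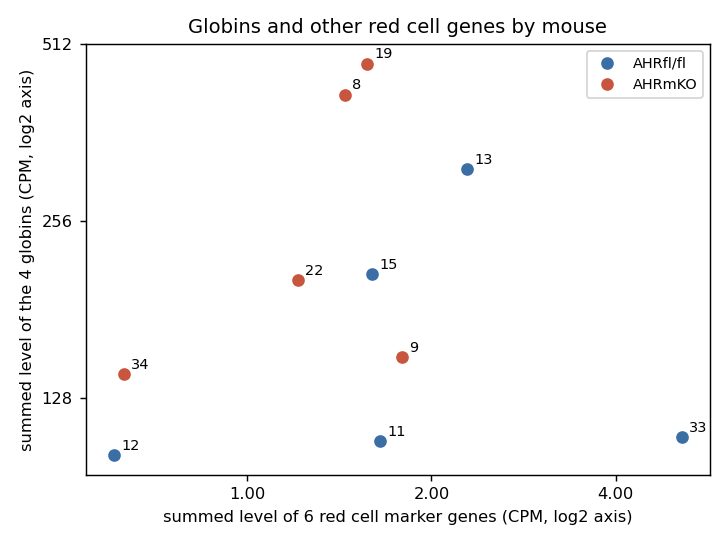
Summed level of the 4 globins against the summed level of 6 other red cell marker genes in each mouse (CPM, both axes on a log2 scale), with the mouse number beside each point. AHRfl/fl mouse 33 has the highest marker sum, 5.13 CPM, and a globin level of 110 CPM, while AHRmKO mice 8 and 19 have the highest globin levels at marker sums of 1.44 and 1.57 CPM. AHRfl/fl mouse 13, with 314 CPM of globin, has the second-highest marker sum, 2.28 CPM.

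Over the 10 mice, Pearson's r between the log2 sums of these markers and of the globins was 0.086 and Spearman's rho 0.103 (permutation test, adjusted p = 0.984 and 0.944 over 13 relations), and r was 0.304 without the 2 mice farthest from the median. Markers of platelets, neutrophils, lymphocytes, endothelium, arteries and skeletal muscle, the total counts and the share of mitochondrial RNA were compared with the globins in the same way, as were the 4 shares above. None of the 13 had an adjusted p under 0.05. The largest r in size was 0.624, between the globin level and the Hba-a1 share (permutation test, p = 0.057, adjusted p = 0.693), and it was 0.363 without the 2 farthest mice. With 10 mice, these values do not show that the globins were unrelated to the other cell types. Of the longer lists for these cells, the median log2 fold change was 0.14 over the 14 endothelial genes, 0.13 over the 12 arterial and smooth muscle genes, 0.09 over 4 platelet genes, 0.08 over 15 skeletal muscle genes, -0.30 over 8 lymphocyte genes and -0.56 over 3 neutrophil genes tested. In these lists 0 genes passed adjustment in the edgeR test. In the arterial and smooth muscle list, Gja5 and Hey1 had an unadjusted p under 0.05 with log2 fold changes of 0.66 and 0.94. These were 2 of the 12 genes, where 3.23% of all genes had such a p with a higher estimate. In Gja5, a connexin of arterial endothelium, every AHRmKO mouse was above every AHRfl/fl mouse, and the groups did not overlap in 1.4% of all genes. The platelet markers summed to between 2.74 and 8.10 CPM, the neutrophil markers to between 0.604 and 4.82 CPM and the endothelial markers to between 132 and 235 CPM per mouse.

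Few genes followed the members closely. Among the tested genes outside the members, the 10 with the highest r to the members' score (the mean of their standardised log2 CPM) over the 10 mice were Gm21781 (0.909), Nup160 (0.875), Smcr8 (0.869), Odf2l (0.841), Zfp324 (0.840), Ttll3 (0.829), Lmbrd2 (0.827), Helb (0.820), Ube2l6 (0.813) and Gm12912 (0.812). They were the highest of 14709 genes and are a description without a test. Ube2l6, a ubiquitin-conjugating enzyme for ISG15, was the 1 of these on a red cell list. Its level was between 1.67 and 3.97 CPM.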

How the data were processed

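Poly(A)-selected RNA of the gastrocnemius of 10 mice was sequenced as paired-end reads of 150 bases. Trimming by the authors was done with Trimmomatic 0.36 and mapping to GRCm38 with STAR 2.5.2b, and they counted uniquely mapped reads on exons per gene. They deposited raw counts, 1 column per mouse, not normalized and not pooled, and all 10 columns were used. The Ensembl release and the use of strand are not given in the sources used here. Unique counting discards reads that fit both copies of a globin, so the counts of each copy understate its RNA. The members and the gene lists were chosen with earlier results of these data known.

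The test was that of edgeR 4.0.16 (R 4.3.3), with filterByExpr (minimum count 10, minimum total 15), TMM, and the robust quasi-likelihood test with Benjamini-Hochberg adjustment over 14714 genes. All 5 members passed the filter. Log2 CPM used a prior count of 2, and intervals came from the standard errors of the fit. Exact permutation tests used the 252 assignments of 5 and 5 mice, whose smallest two-sided p is 0.00794. Correlations used 100000 permutations (scipy 1.17.1). Unique windows were searched in GENCODE M21 transcripts extended by RefSeq bases upstream, with blastn 2.17.0 (word size 28) to find candidate genes and exact matching. Symbols matched 48970 of the 49315 identifiers. The edgeR test was tested on simulated counts with known changes.

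Genes with an unadjusted p under 0.05 were named from each list, and others were picked for their counts or for what they are known to do. Some genes of the haem and red cell lists are left out of the lists and sums and are not reported here. Alternatives were DESeq2 1.42.0, limma-voom (limma 3.58.1), other scalings, filters and thresholds, summed copies, windows of 75, 100 and 300 bases, a prior count of 0.5 and leaving out each mouse. The fit with Xist as a covariate, the filtering target of DESeq2, the shares of alpha-globin and of Alas2, the clusters of mice and the relations to marker sums were chosen after seeing the data. The mice are separate animals, and their litters were not analysed here.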

Additional observations from a re-analysis of the deposited data

Results flagged for a closer look

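In 2 sets of 5 mice, 1 mouse lay far from the others. Hbb-bt in AHRfl/fl mouse 13, at 33.6 CPM, was separated from the next AHRfl/fl mouse by a gap of 0.7652 of the group's range in log2 CPM, which is past Dixon's 95% critical value for 5 samples. The alpha-globin part of the globin counts was lowest in AHRmKO mouse 34, at 37.7%, with a gap of 0.8515 of the range to the next AHRmKO mouse. There were 36 sets of 5 mice checked in this way, and chance puts about 1 in 20 past the critical value.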

How the results depend on the processing

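The number of members with an adjusted p under 0.05 was 0 in all settings tried, and the log2 fold changes of Hba-a1, Hba-a2, Hbb-bs, Alas2 and both sums stayed above 0. Hbb-bt was at -0.0058 without AHRmKO mouse 19 and at 0.75 without AHRfl/fl mouse 13. With limma-voom, Alas2 was at 0.25, against 0.42 in the edgeR fit. Over all genes, 1 passed in the edgeR test, 21 with DESeq2, 10 with the filtering target of DESeq2 at 0.1, 5 with no filter on low counts and from 1 to 6 when each mouse was left out (6 without AHRmKO mouse 34). The causes were not tested. The difference in the Hba-a1 share was between 2.02 and 4.33 percentage points when each mouse was left out, with an exact p of 0.0476 without AHRmKO mouse 34, and that in the Hbb-bt share between -4.89 and -3.04, with p under 0.05 in 2 of the 10 cases. The unique part of Hba-a1 was 12%, 16.7% and 30.8% with windows of 75, 100 and 300 bases, and that of Hba-a2 was 16.2%, 22.8% and 54.5%. For Hba-a2, the 16 windows of 75 or 100 bases past the end of the Hba-a1 model do not reach the differing base. They were left out as undecided. No paired analysis was run, since the mouse numbers are not shared between the genotypes and litters were not analysed. The printed intervals show which sizes of difference 5 mice per genotype do not exclude. Reads from introns or from gene copies outside the transcript models could change which counts are unique.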
